A study of Mus musculus with 3 samples.

Results

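Dendritic-like cells of the mouse brain, defined here by transcripts of the C-type lectin Cd209a and its neighbours in expression together with MHC class II genes, made up 322 of 2144 cells (15.0%, exact binomial 95% interval 13.5 to 16.6%) in single-cell RNA sequencing of Cd11b-sorted brain cells. They were chosen by their own counts. At least 0.05% of a cell's unique molecular identifiers (UMIs, each standing for 1 captured transcript) came from Cd209a, Mgl2, Clec10a, Clec4b1 and Tnip3, and at least 0.5% from H2-Aa, H2-Ab1 and H2-Eb1. Less than 0.1% came from the macrophage genes Mrc1, Pf4, Cbr2, Cd163 and Cd209f, and fewer than 3 UMIs came from Ccr7, Apol7c, H2-M2, Cacnb3 and Il12b, genes of mature dendritic cells. The genes of the rule are therefore described and support nothing.

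The study examined microglia, the resident macrophages of the brain, under PLX5622, an inhibitor of the receptor Csf1r, and in early repopulation. All mice were C57BL6J females of 5 months, and the whole brain without the cerebellum was digested with enzymes, depleted of myelin and sorted for Cd11b. Group Ctrl was 1 untreated mouse, group D0 was a pool of 2 mice at the end of 14 days on diet with 1200 mg/kg PLX5622, and group D2 was 1 mouse that had received control diet for 2 days after 14 days of PLX5622. Each group gave 1 library, prepared with 10x Genomics 3′ v2 reagents. Cells were told apart only by a barcode ending of 1, 2 or 3, which nothing in the sources used here ties to Ctrl, D0 or D2, so libraries 1, 2 and 3 are given side by side and no condition was compared. With 1 library each there is no replicate check, no p-value was computed, and every interval below covers counting error only, not the spread between cells or animals.

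Conventional dendritic cells take up antigen, cut it into peptides and present these on MHC class II molecules to CD4 T cells. They develop under the receptor tyrosine kinase Flt3 and are set apart from macrophages by the transcription factor Zbtb46. The type 1 subset depends on Irf8 and Batf3 and carries Xcr1 and Clec9a, whereas the type 2 subset uses Irf4 and often carries C-type lectins such as Cd209a, Mgl2 and Clec10a. Inflammatory monocytes can take on some of these markers, and in the healthy brain dendritic cells are found mainly in the meninges and choroid plexus.

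Dendritic-like cells were rare in library 1 and common in the other two. Library 1 held 46 among 1263 cells, a share of 3.64% (2.68 to 4.83%). Library 2 held 204 among 595, or 34.3% (30.5 to 38.3%), and library 3 held 72 among 286, or 25.2% (20.3 to 30.6%), so that these 2 intervals just overlapped. The share is set against all kept cells, and library 1 held 1110 of the 1205 microglia-marker cells, so fewer dendritic-like cells and more of the other cells cannot be told apart. The median dendritic-like cell had 9072 UMIs and 2141 genes, against median depths of 3662, 6216 and 8180.5 UMIs over all cells of libraries 1, 2 and 3. No barcode was shared between libraries once the ending was removed (0 shared). Scrublet, a doublet caller, marked 7 of all cells and 2 of the 322.

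Markers of other cell types were present in 107 of the 322. The microglia marker rule was met by 36 cells (18, 15 and 3 in libraries 1, 2 and 3), the monocyte rule by 42, the neutrophil rule by 35 and the nonclassical monocyte rule by 10, and 15 cells met more than 1. None met the rule of NK cells. These 107 had a median of 9802 UMIs against 8751 in the other 215, with 11470.5 in the cells with microglia markers and 11134 in those with neutrophil markers. The part of mixed cells or free RNA in this was not tested. Over all 322, the median share of a cell's UMIs was 0.0352% for 6 monocyte genes, 0.0380% for the microglia genes and 0.0337% for the neutrophil genes, and T cell genes were at 0 in all 322. Results are therefore also given for the 215 cells without markers of another class, a choice made after the values were seen. They were 23, 141 and 51 cells, or 1.82% (1.16 to 2.72%), 23.7% (20.3 to 27.3%) and 17.8% (13.6 to 22.8%) of libraries 1, 2 and 3.

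**Figure D1:**
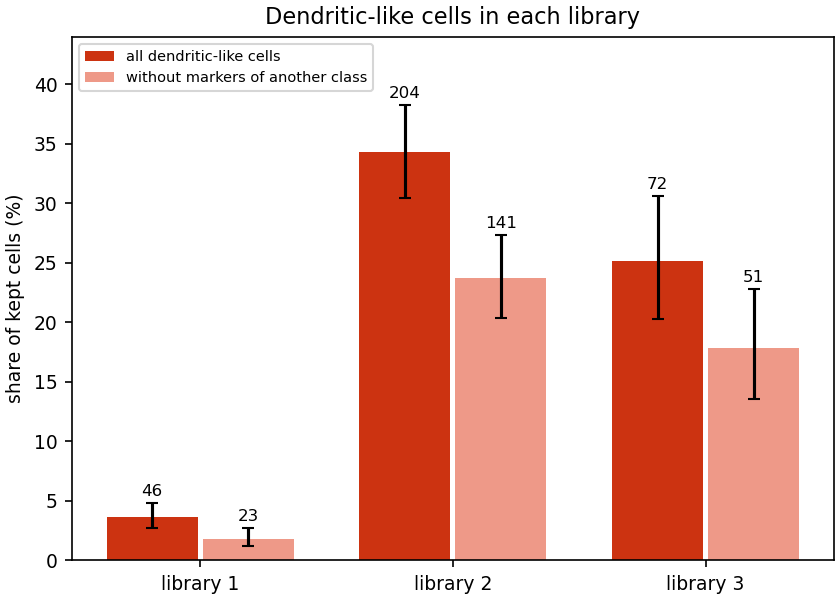
Share of kept cells (%) that were dendritic-like in each library, for all 322 cells and for the 215 without markers of another class, with exact binomial 95% intervals and the number of cells above each bar. Library 1 lies at 3.64% and library 2 at 34.3%.

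The lectin genes that chose the cells were not all high in the same cells. The 5 genes had a median of 0.353% of UMIs per cell, and 9, 36, 58, 113 and 106 cells had UMIs of 1, 2, 3, 4 and 5 of them. Cd209a (chromosome 8, 3743397 to 3748984 in mm10), a pathogen receptor, stood at 1031, 1694 and 971 CPM (the gene's UMIs summed over cells and scaled to the total of those cells) in libraries 1, 2 and 3. Mgl2 (chromosome 11, 70130329 to 70137550), a galactose-binding lectin, stood at 1183, 1071 and 1364 CPM. Library 2 was thus the highest for Cd209a and the lowest for Mgl2. Clec10a, the lectin encoded beside Mgl2, had 134, 340 and 256 CPM, Clec4b1 had 167, 270 and 214 CPM, and Tnip3, an inhibitor of NF-κB signalling, had 627, 618 and 712 CPM. After each cell was thinned to 2000 UMIs, Cd209a was found in 75.5% of dendritic-like cells (87.6% without thinning) and in 0 of 102 NK-marker cells (interval to 3.55%).

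The cut by MHC class II was cleaner than the cut by lectins. Of the 322, 23 had less than 2 times the lectin threshold and 2 had less than 2 times the MHC class II threshold. The lowest member had 0.0503% lectin UMIs and the closest cell that failed on this alone had 0.0495%, whereas for MHC class II the values were 0.721% and 0.390%. In all, 65 cells failed on the lectins alone, 17 on MHC class II alone, 6 on the macrophage genes alone and 30 on the Ccr7 set alone, 27 of these in library 2. The class is thus a range of a score on the lectin side.

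**Figure D2:**
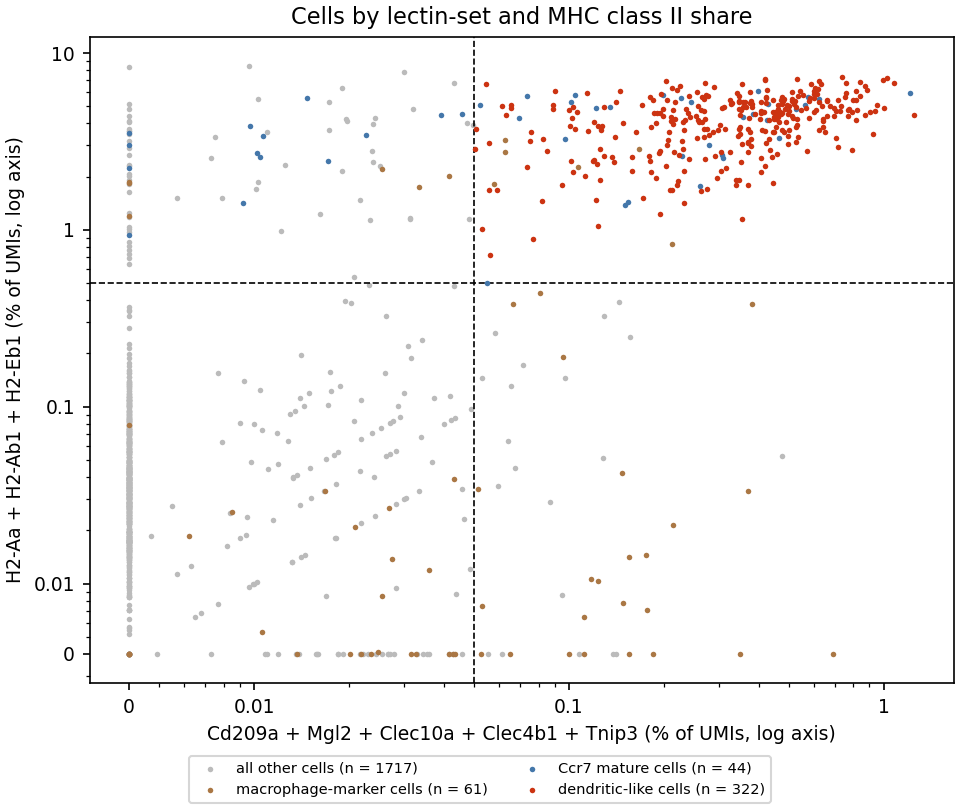
Each of the 2144 cells by its lectin-set share (x axis, % of UMIs) and MHC class II share (y axis, % of UMIs), both on log axes that include 0, with the thresholds dashed. The 322 dendritic-like cells lie in the upper right, with medians of 0.353% and 4.38%, and cells spread across the lectin threshold.

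Genes of MHC class II presentation were abundant in these cells. H2-Ab1 (chromosome 17, 34257689 to 34269419), the beta chain of I-A, stood at 13964, 17173 and 14878 CPM in libraries 1, 2 and 3, H2-Aa at 11790, 14570 and 11547 CPM, and H2-Eb1 at 9848, 11271 and 9639 CPM. These 3 genes chose the cells. Cd74, the invariant chain that guards the peptide groove and was not in the rule, had 37410, 40324 and 31962 CPM, or 37731 over all 322 (Poisson 95% interval 37519 to 37944). The peptide-exchange factor H2-DM followed, with H2-DMa at 1324, 1700 and 1564 CPM, H2-DMb1 at 1193, 1185 and 989 CPM and H2-DMb2 at 265, 493 and 536 CPM. Its inhibitor H2-O had 185, 336 and 256 CPM for H2-Oa and 68.1, 86.4 and 65.9 CPM for H2-Ob. Ciita, the transactivator of these genes, was low at 21.1, 32.9 and 22.3 CPM. Of the 11 presentation genes outside the rule with enough UMIs, none differed by 2-fold with intervals apart between libraries 2 and 3. NK-marker cells, which should lack them, had 114 CPM of Cd74 and 16.7% with H2-DMa after thinning, against 94.1% of dendritic-like cells (99.7% unthinned).

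Because these genes were high together, the 150 bases before their start sites were searched for TGATTGG, the inverted CCAAT core of the Y box in MHC class II promoters, on both strands. RefSeq promoters of GRCm38.p6 were matched for 12 of 16 listed presentation genes, and 7 held the motif, as did 1877 of 32851 promoter windows of that length (5.71%). The windows of H2-DMa, Ctss, Ifi30, Lgmn and Rfxank did not hold these letters, and Rfx5 held them on the opposite strand. The 6 windows with the motif on the strand of the gene are shown because they are the presentation genes described above. The motif, in capitals, begins 50, 61, 63, 92, 45 and 59 bases before the start in the order printed. The windows are chr17:34287824-34287973 (minus strand) for H2-Aa, chr17:34305717-34305866 for H2-Eb1, chr17:34153041-34153190 for H2-DMb1, chr17:34145099-34145248 for H2-DMb2, chr17:34092229-34092378 for H2-Oa and chr17:34238755-34238904 for H2-Ob, on the plus strand where not given. A match is a description of the letters and not of binding.
H2-Aa: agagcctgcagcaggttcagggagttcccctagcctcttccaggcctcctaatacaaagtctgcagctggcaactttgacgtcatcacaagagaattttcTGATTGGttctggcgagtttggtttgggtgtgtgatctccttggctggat
H2-Eb1: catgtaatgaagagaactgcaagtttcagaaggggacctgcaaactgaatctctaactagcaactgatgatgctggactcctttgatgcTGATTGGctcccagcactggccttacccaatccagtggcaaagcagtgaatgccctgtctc
H2-DMb1: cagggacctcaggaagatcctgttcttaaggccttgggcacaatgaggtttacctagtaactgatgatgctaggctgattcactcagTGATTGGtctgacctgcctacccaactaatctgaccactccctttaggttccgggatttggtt
H2-DMb2: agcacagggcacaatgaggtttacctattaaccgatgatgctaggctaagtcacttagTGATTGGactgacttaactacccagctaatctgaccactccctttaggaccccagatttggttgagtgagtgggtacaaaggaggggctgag
H2-Oa: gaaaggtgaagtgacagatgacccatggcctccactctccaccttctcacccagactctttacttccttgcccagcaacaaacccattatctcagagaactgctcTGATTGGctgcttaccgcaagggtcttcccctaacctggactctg
H2-Ob: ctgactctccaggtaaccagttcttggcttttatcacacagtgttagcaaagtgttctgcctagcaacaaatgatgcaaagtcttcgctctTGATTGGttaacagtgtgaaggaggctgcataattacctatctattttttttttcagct

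Genes of conventional dendritic cells outside the rule were detected, at low levels. Flt3 (chromosome 5, 147330741 to 147400489) had 30.5, 32.4 and 9.41 CPM in libraries 1, 2 and 3, from 84 UMIs in all. Zbtb46 (chromosome 2, 181387762 to 181459426) had 14.1, 22.1 and 12.9 CPM, and Dpp4 (CD26), a surface peptidase used to mark conventional dendritic cells, had 42.3, 57.1 and 23.5 CPM. Library 3 was lowest for Flt3 and Dpp4. After thinning, Flt3 was found in 5.28% of dendritic-like cells (21.4% unthinned), Zbtb46 in 2.48% (16.1% unthinned) and Dpp4 in 10.2% (35.7% unthinned), each against 0 of 102 NK-marker cells. Itgax (CD11c) had 35.2, 53.5 and 61.2 CPM, but NK-marker cells had more (112 CPM), so it marks no lineage here. Irf4 had 28.2, 26.2 and 16.5 CPM.

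The 10 genes listed for type 1 cells were mixed. Their summed level was 483 CPM in dendritic-like cells, beside 513 CPM for 9 type 2 genes outside the rule. Neither sum was highest in dendritic-like cells. Monocyte-, macrophage- and NK-marker cells had 750, 725 and 590 CPM of the type 1 list and 543, 703 and 676 CPM of the type 2 list. Ccr7 mature cells had 834 and 392 CPM. The surface receptors that define the type 1 subset were near 0. Xcr1 had 3 UMIs over the 322 cells (0.932 CPM, 0.192 to 2.72) and Clec9a had 6 (1.86 CPM, 0.684 to 4.06), while the Ccr7 mature cells had 27.2 and 13.6 CPM. Other listed genes were common: Naaa, a lysosomal amidase, had UMIs in 73.6% of cells (214 CPM), Wdfy4, used in cross-presentation, in 35.4% (52.2 CPM) and the factor Batf3 in 35.1% (46.9 CPM). After thinning these shares were 27.0%, 11.5% and 8.70%, against 3.92%, 0.98% and 0 of NK-marker cells. Of the 6 listed genes with enough UMIs for the comparisons given further on (at least 2-fold, intervals apart), Cadm1 and Wdfy4 were higher than in monocyte-marker cells, and Wdfy4, Naaa and Ifi205 higher than in macrophage-marker cells, where Cadm1 was lower. In the 215, Wdfy4 was the only one of 5 with enough UMIs that was higher than in monocyte-marker cells. Beside macrophage-marker cells the same 3 were higher. Irf8 was lower than in either class. It stood at 261, 74.1 and 36.5 CPM in libraries 1, 2 and 3, highest where microglia markers were most frequent, and at 43.4 CPM (34.7 to 53.5) in the 215 cells without other markers. Monocyte-marker cells had 400 CPM (357 to 448) of Irf8. Of the plasmacytoid markers, Siglech had 62.4 CPM in all 322 cells and 6.98 in the 215. Microglia also express it, and it is one of the genes that set apart the 215. Klk1 and Pacsin1 were at 0 (below 0.932 CPM at 3 counts). Of the type 2 list, Ccr6 and Dtx1 were also at 0.

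Monocyte and macrophage receptors were present beside the dendritic genes. Csf1r, the target of PLX5622, had 714, 120 and 106 CPM in libraries 1, 2 and 3, and 80.3 CPM (68.3 to 93.7) in the 215 cells without other markers. Library 1 was highest, and it also had 1066 CPM of the microglial receptor P2ry12, against 31.9 and 7.06 CPM in libraries 2 and 3. The part of these microglial transcripts in the Csf1r level was not tested. Ccr2, the chemokine receptor of monocytes and of monocyte-derived and type 2 dendritic cells, had 387, 324 and 222 CPM, and is one of the genes of the monocyte rule. After thinning, 45.3% of dendritic-like cells had a UMI of a conventional dendritic gene, 58.4% of a monocyte and macrophage receptor, and 21.1% of both. In the 215 the first 2 shares were 48.4% and 45.1%, in monocyte-marker cells 25.3% and 82.1%, in macrophage-marker cells 11.5% and 98.4%, and in NK-marker cells 38.2% and 24.5%. Since NK-marker cells also express Itgax and Spint2, the first share is not specific to dendritic cells.

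**Figure D3:**
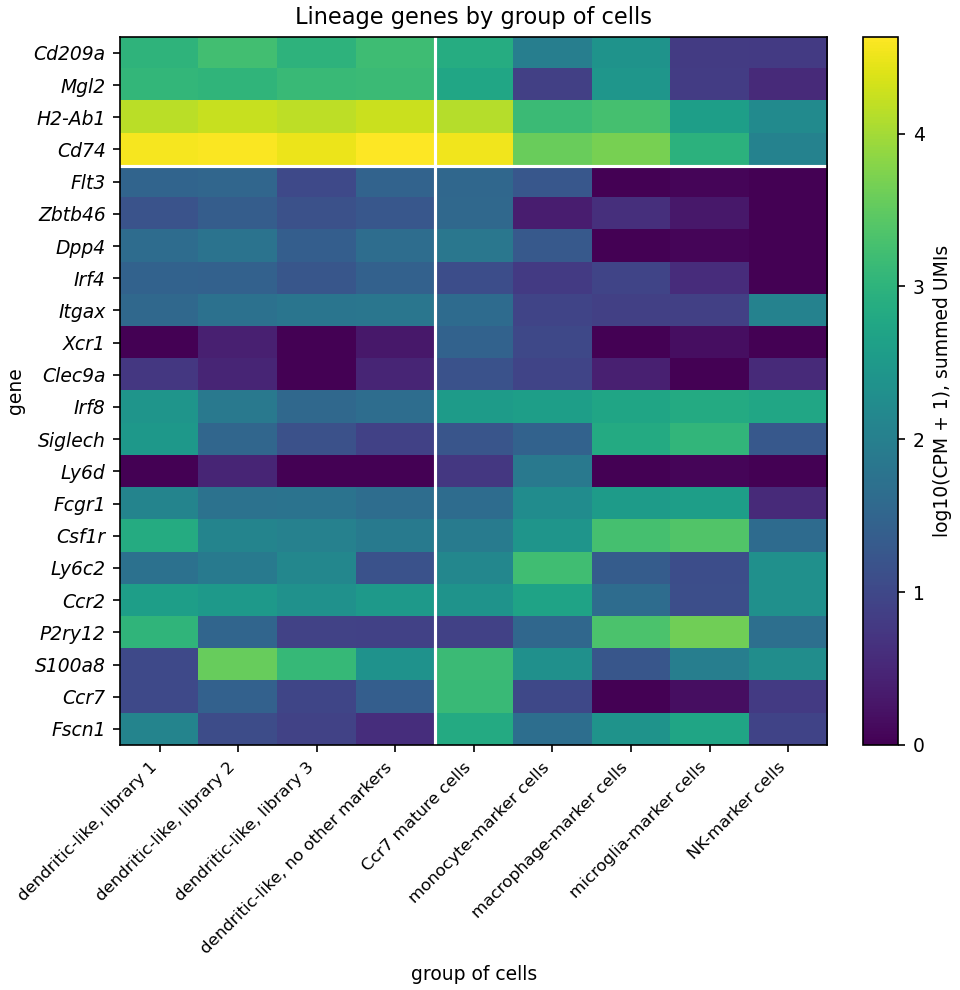
Level of 22 genes as log10(CPM + 1) of summed UMIs (colour) in dendritic-like cells of libraries 1 to 3, in those without other markers, and in 5 other classes. Genes above the white line belong to the rule or are the invariant chain, Xcr1 and Clec9a are dark in the dendritic-like columns, and P2ry12 and Csf1r are brighter in library 1 (1066 and 714 CPM) than in libraries 2 and 3.

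Dendritic-like cells were next set beside the 95 monocyte-marker cells (8, 44 and 43 in libraries 1, 2 and 3; 11 within 2 times their threshold). A gene counted as higher or lower with at least 2-fold between summed levels and intervals apart, among genes with at least 50 UMIs in both classes together. Of 5671 genes, 312 were higher in dendritic-like cells (5.5%) and 428 lower (7.55%); in the 215 cells without other markers, 244 of 4592 were higher (5.31%) and 523 lower (11.4%). The median log2 ratio over all genes was -0.20, and centred on it the higher calls were 59.3% of calls in place of 42.2%. Without library 2 the lower calls were 257. Of the marker lists of other cells, 6 of 7 microglia and 5 of 5 neutrophil genes were higher in the 322 cells, and 0 of 4 and 0 of 3 in the 215. The 215 were set apart by these same lists, so that drop follows from the choice of cells. The part of these genes in the other calls was not tested.

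Most antigen presentation genes were higher than in monocyte-marker cells. Of 11 presentation genes, 7 were higher and none lower, and the list's median log2 ratio was 2.13. Cd74 was 10.1-fold higher (9.76 to 10.5), H2-Oa 11.9-fold (7.55 to 19.8) and Ciita 4.37-fold (1.80 to 13.8). In the 215 cells, Lgmn, a lysosomal protease, was lower. Of 6 costimulation genes, 2 were higher. Tnfsf9 (4-1BB ligand), which costimulates T cells, had 437 CPM (414 to 460) against 20.9 (12.0 to 34.0), and Cd83, which stabilises surface MHC class II, had 610 CPM against 101. The other 4, among them Cd86 (131 against 89.0 CPM), did not reach the criterion in all 322 cells, and Cd40 was lower in the 215. Il1b, the inflammatory cytokine, was 2.66-fold higher (2.45 to 2.90) and Tnf 5.69-fold (3.13 to 11.5), while Il6 was lower at 8.38 against 73.3 CPM. H2-Oa, Ciita, Tnfsf9 and Tnf reached the minimum of UMIs only through the dendritic-like cells, so the counts of their lists are a description. Of 11 chemokines, Ccl4, Ccl17, Ccl22, Cxcl2 and Cxcl16 were higher, and Ccl5, Ccl6 and Ccl9 were lower.

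Some conventional dendritic genes differed from monocyte-marker cells. Of 8, 3 were higher and none lower, beside 5.5% higher and 7.55% lower over all genes. In the 215 cells 2 of 6 were higher (Dpp4 and Itgax), beside 5.31% over all genes. Dpp4 was 2.53-fold higher (1.46 to 4.73) and Itgax 6.76-fold (3.04 to 18.7), and the ratio for Zbtb46 was 14.2 (2.46 to 572) against 1 monocyte UMI. Itgax is also high in NK-marker cells, as given above. Dpp4, Itgax and Zbtb46 (60 UMIs) each reached the minimum of UMIs only through the dendritic-like cells, so that these counts are a description. Flt3 did not differ by the criterion, with 26.1 CPM (20.8 to 32.3) against 17.0 (9.06 to 29.1). Of 5 type 2 genes outside the rule, 2 were higher, Irf4 and Ltb. Irf4, also counted only through the dendritic-like cells, was 4.57-fold higher (1.71 to 17.2). Of 7 monocyte and macrophage receptors, Fcgr1 (2.75-fold), Cd14 (2.39-fold) and Fcgr3 (2.14-fold) were lower in all 322 cells, and all 7 were lower in the 215. Irf8 was 4.51-fold lower, and 9.23-fold lower in the 215. Genes of the interferon response were lower for 5 of 12 in all cells and for 10 of 10 in the 215. There Irf7, a factor that amplifies interferon production, had 60.8 against 292 CPM and Ifi204 had 46.9 against 328 CPM. Beside other classes the direction varied: 6 of 12 were lower than in Ccr7 mature cells, and 7 of 12 higher and 0 lower than in macrophage-marker cells. In the 215 these counts were 7 of 10 lower beside mature cells, and 2 of 10 higher and 0 lower beside macrophage-marker cells. The monocyte genes Ly6c2 and Chil3 helped to define the monocyte-marker cells and to set apart the 215, and are not compared.

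The genes named by the size of their ratio were of uneven weight. Besides the rule genes Mgl2 and Mrc1, Mmp12 (macrophage elastase; 302 UMIs in 59 cells against 2 UMIs) was 35.8-fold higher (9.83 to 297), Ccl17 34.9-fold (16.9 to 87.1; 71.4% of the 7 monocyte UMIs in 1 cell), and the ratio for Ccl22 was 24.7 (4.33 to 984) against 1 UMI. The lowest were Prss34, Mcpt8, Dcn, Fcer1a and Ly6d. In each of these, 1 monocyte-marker cell held 45.6% to 100% of the monocyte UMIs, and Prss34, Mcpt8 and Fcer1a are basophil and mast cell genes, so they describe single cells and not the class.

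The 44 Ccr7 mature cells (2, 38 and 4 in libraries 1, 2 and 3; 14 with fewer than 6 UMIs of their defining genes) were chosen with the same MHC class II minimum as the dendritic-like cells. Of 5328 genes, 256 were higher in dendritic-like cells (4.8%) and 210 lower (3.94%), and in the 215 cells 173 of 4076 were higher (4.24%) and 219 lower (5.37%). The median log2 ratio was 0.17, and centred on it the higher calls were 34.8% of calls in place of 54.9%. Without library 2, which held most mature cells, the calls were 97 and 118.

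Of the presentation genes, 0 of 11 met the criterion in either direction beside the mature cells. Cd74 had 37731 against 34354 CPM (33810 to 34906) and Ciita 28.6 against 31.7 CPM. The 7 maturation genes outside the rule with enough UMIs were each lower in dendritic-like cells. Socs2, Cd200 and Il4i1 had 9, 13 and 14 UMIs in the 322 cells and were counted only through the mature cells, so the number of such genes is partly set by the minimum of UMIs. Fscn1 (fascin, which bundles actin in migrating dendritic cells) was 28.5-fold lower, and 231-fold lower in the 215. Socs2 was 101-fold lower, Il4i1 63.6-fold, Ccl22 28.4-fold and Ccl17 3.48-fold. Of 8 conventional dendritic genes, 0 were higher and 2 lower, Spint2 and Relb, and the 9 listed summed to 272 against 705 CPM. Relb, an NF-κB subunit, was 6.66-fold lower. Cd40 was 7.30-fold lower and Icosl 2.71-fold, while Cd83 (610 against 986 CPM) and Tnfsf9 (437 against 363 CPM) did not reach the criterion. Irf8 was 3.98-fold lower and Id2, a regulator of dendritic development, 3.30-fold. Ccl5 was 32.4-fold lower, with 182 against 5898 CPM. NK-marker cells had 14154 CPM of Ccl5, and the part of their RNA in either level was not tested.

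Genes higher in dendritic-like cells than in mature cells came from several lists. Cell cycle genes were higher for 8 of 20 over the pooled libraries, and for 11 of 20 in the 215, with Stmn1 at 323 against 150 CPM and Ube2c at 87.3 against 38.5 CPM. Most of the 20 reached the minimum of UMIs only through the dendritic-like cells, so these counts are a description. Library 3, where the 20 genes summed to 2041 CPM in dendritic-like cells, held 4 mature cells. Within library 2 the sum was 910 against 513 CPM, and the intervals of the thinned share of cells with at least 3 of the genes overlapped, at 9.80% (6.09 to 14.7%) against 2.63% (0.0666 to 13.8%). Beside monocyte-marker cells, 1 of the 20 genes was higher and 1 lower in the 322, and 3 were higher and 0 lower in the 215. Monocyte and macrophage receptors were higher for 6 of 7, but for 2 of 6 in the 215, where Cd14, a lipopolysaccharide co-receptor, was 2.99-fold higher (2.09 to 4.43). All 7 microglia genes were higher in the 322. In the 215, which were set apart by this list among others, 1 had enough UMIs and it did not meet the criterion. Most genes of the microglia and receptor lists reached the minimum of UMIs only through the dendritic-like cells, so their counts are a description. By size the highest were Jchain, Retnla, P2ry12, Mmp12 and Lpl, with Jchain 99.6% from 1 cell and Lpl 33.9% from 1 cell. The rule genes Il12b, Cacnb3, H2-M2 and Apol7c and then Socs2 were the lowest.

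The 61 macrophage-marker cells (58, 0 and 3 in libraries 1, 2 and 3; 15 within 2 times their threshold) gave the highest share of calls among the 3 classes compared. Of 5838 genes, 540 were higher in dendritic-like cells (9.25%) and 1190 lower (20.4%), and in the 215 cells 488 of 4708 were higher (10.4%) and 1070 lower (22.7%). The median log2 ratio was -0.30, and centred on it the higher calls were 51.0% in place of 31.2%. Nearly all macrophage-marker cells came from library 1, so class and library cannot be told apart over the pool. Microglia genes were lower in dendritic-like cells for 8 of 8. Macrophage-marker cells had 14445 CPM of the microglia list, against 29094 CPM in microglia-marker cells, and a median of 1.42% of UMIs per cell. Cells with microglia markers were left out of the 215 but not of this class. Neutrophil genes, counted only through the dendritic-like cells, were higher for 4 of 5, and for 3 of 3 in the 215. Monocyte genes were higher for 3 of 6 (Ly6c2, Plac8 and Ccr2) and lower for 1 (F13a1). The part of such transcripts in the other calls was not tested. Within library 1 the calls were 169 and 390, without library 1 they were 110 and 354, and without library 2 the lower calls were 751.

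Conventional dendritic genes were seen little in macrophage-marker cells. Of 8, 7 were higher in dendritic-like cells, and 5 of 6 in the 215, but each of the 8 reached the minimum of UMIs only through the dendritic-like cells (Zbtb46 with 60 UMIs and Btla with 58, for example), so that these counts are a description. Flt3, Dpp4 and Spint2 had 0 UMIs in macrophage-marker cells and were at least 5.42-, 9.61- and 5.87-fold higher at a floor of 3 counts in that class. Of 8 monocyte and macrophage receptors, 7 were lower in all 322 cells and 8 in the 215. Csf1r was 9.61-fold lower (195 against 1874 CPM), and 23.3-fold lower in the 215, and Sirpa, an inhibitory receptor that type 2 dendritic cells also carry, was 4.84-fold lower. Presentation genes were higher for 8 of 11, with Cd74 at 7.74-fold, while the proteases Ctss and Lgmn were 2.38- and 8.92-fold lower. Il1b was 12.1-fold higher (9.99 to 14.7), Tnfsf9 16.0-fold (9.96 to 27.6), Ccr2 7.32-fold (4.96 to 11.3) and Itgb7, an integrin chain of gut homing, 12.4-fold (6.69 to 26.0). Cell cycle genes were higher for 11 of 20, and for 17 of 20 in the 215. Most of the 20 reached the minimum of UMIs only through the dendritic-like cells, so these counts are a description. Within library 1, the thinned share of cells with at least 3 of these genes was 4.35% (0.531 to 14.8%) in dendritic-like cells. In macrophage-marker cells of library 1 it was 0 of 58 (interval to 6.16%), and the intervals overlapped.

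Among the genes named by size, several were spread over many cells. Lmo1, a transcriptional cofactor, was found in 190 of the 322 cells and in 1 macrophage-marker cell, with a ratio of 83.2 (14.9 to 3295). Klrk1, the NKG2D receptor of NK cells, was found in 158 cells with a ratio of 74.9 (13.4 to 2966), and Il1r2, the interleukin 1 decoy receptor, in 138 cells with a ratio of 69.5 (12.4 to 2752), each against 1 UMI. Library 1, which gave most macrophage-marker cells, held 12 of the 117 NK-marker cells, and the part of NK cell RNA in the Klrk1 level was not tested. Retnlg, a neutrophil gene, had a ratio of 119 (32.8 to 981) against 2 UMIs, with 381 CPM in the 322 and 52.8 in the 215. It is one of the genes that set apart the 215. Jchain was at least 103-fold higher, from 1 cell. The lowest were Cd209g, a relative of Cd209a (1 UMI or 0.311 CPM against 127 UMIs or 204 CPM), the rule genes Cd209f and Cbr2, and Cd38 and Folr2.

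**Figure D4:**
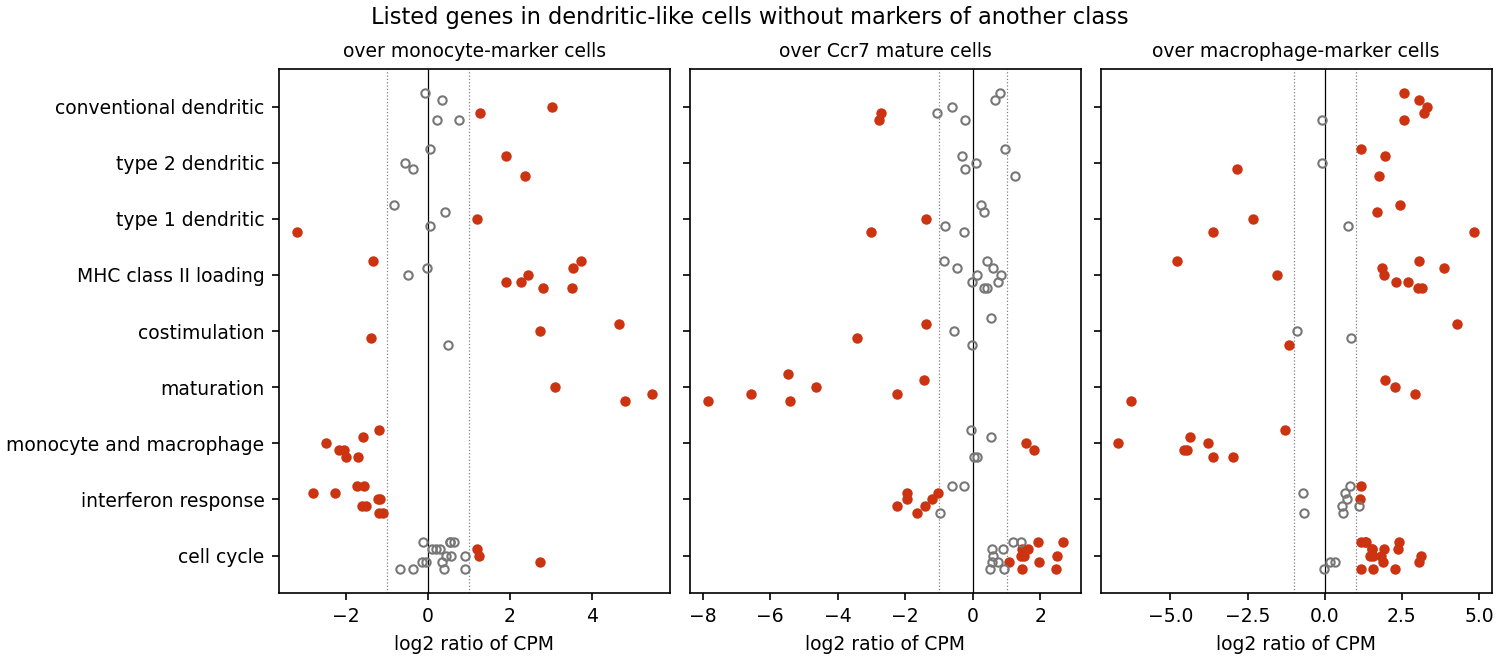
Log2 ratio of CPM (x axis, scaled separately in each panel) of the 215 dendritic-like cells without other markers over 3 other classes, for each listed gene with at least 50 UMIs, by gene list. Filled points met the criterion of 2-fold with intervals apart, dotted lines mark 2-fold, and the presentation genes sit to the right beside monocyte- and macrophage-marker cells but near 0 beside Ccr7 mature cells.

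Among the dendritic-like cells themselves, those of library 3 had more cell cycle transcripts. After thinning, UMIs of at least 3 of 20 cell cycle genes were found in 2 of the 46 library 1 cells (4.35%, 0.531 to 14.8%). The count was 20 among 204 in library 2 (9.80%, 6.09 to 14.7%) and 19 among 72 in library 3 (26.4%, 16.7 to 38.1%). The interval of library 3 lay above that of library 2 and above that of library 1. Without thinning the shares were 17.4%, 21.1% and 54.2%. In the 215 cells the thinned shares were 8.70%, 12.8% and 27.5%, and the interval of library 3 (15.9 to 41.7%) overlapped that of library 2 (7.74 to 19.4%). Monocyte-marker cells had 0 of 8, 2 of 44 and 7 of 43, and NK-marker cells 0 of 10, 1 of 65 and 2 of 27. In library 3, 16 of 26 microglia-marker cells passed the same count, and the part of their RNA in the values of other cells was not tested.

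**Figure D5:**
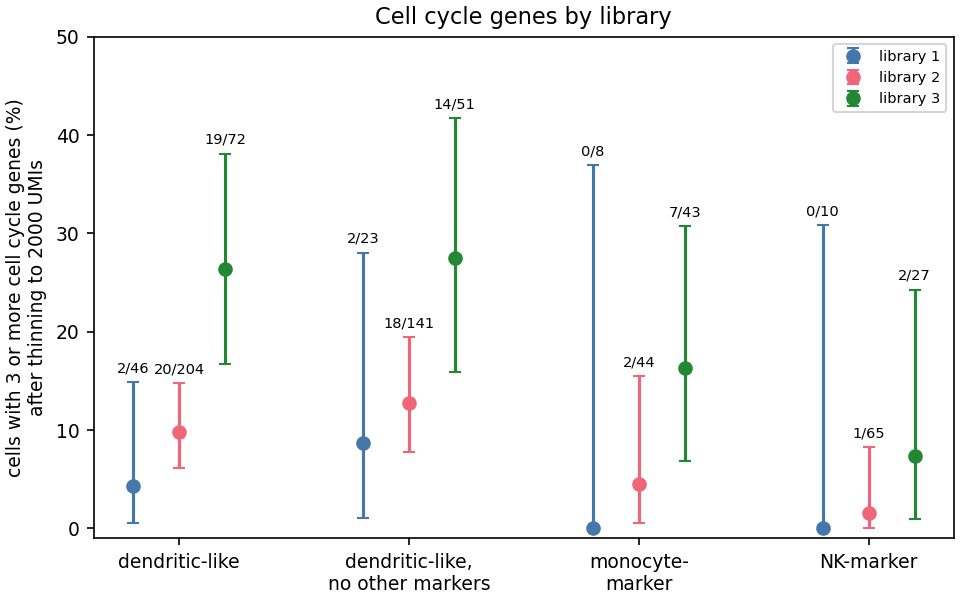
Share of cells (%) with UMIs of at least 3 of 20 cell cycle genes after thinning to 2000 UMIs, by library, for dendritic-like cells, those without other markers, and 2 other classes, with exact binomial 95% intervals and the counts above. Library 3 is highest in each class, with 26.4% of dendritic-like cells.

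Over all genes, dendritic-like cells of library 3 had 158 of 4543 genes higher (3.48%) and 83 lower (1.83%) than those of library 2. In cells without other markers it was 108 of 3327 (3.25%) and 63 (1.89%). The median log2 ratio was 0.15, and centred on it the higher calls were 41.0% in place of 65.6%. With cycling cells left out, 45 genes were higher. In all cells 3 of 6 monocyte genes were higher and 3 of 7 microglia and 2 of 5 neutrophil genes lower in library 3, and their part was not tested. These values set 2 libraries beside each other, not 2 conditions.

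Cell cycle genes were higher in library 3 for 13 of 20, with a list median of 1.19, and in cells without other markers for 5 of 20 (Ccnb2, Tk1, Tyms, Mcm5 and Mcm6). Mcm5, a DNA replication helicase subunit, was 3.59-fold higher (2.31 to 5.66) and Tk1 3.26-fold (2.21 to 4.84). The conventional dendritic genes Flt3, Dpp4 and Bcl11a were 3.44-, 2.43- and 2.02-fold lower, and Flt3 and Dpp4 met the criterion in the cells without other markers too. None of 11 presentation genes met it.

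Chemokines differed between the libraries in both directions. Ccl17 (chromosome 8, 94810453 to 94812036), a ligand of Ccr4 on T cells, had 153, 218 and 639 CPM in libraries 1, 2 and 3 and was 2.94-fold higher in library 3 than in library 2 (2.58 to 3.34), or 3.01-fold in cells without other markers. Ccl22, its partner ligand, had 25.8, 24.2 and 54.1 CPM. After thinning, 15.2% of dendritic-like cells had a Ccl17 UMI (30.1% unthinned) and 1 NK-marker cell did. Ccl2, which draws Ccr2-bearing monocytes, had 416, 35.0 and 262 CPM, and was 7.50-fold higher in library 3 than in library 2, from 27 and 20 cells. Ccl3 was 2.23-fold lower in library 3. Of the genes named by size, Ccl12 (53.1% of library 3 UMIs from 1 cell) and Ccl7 (71.7%) rested on single cells. Dok2, an adaptor of receptor signalling, and Spp1 (osteopontin) were 6.54- and 5.37-fold higher, from 31 cells each in library 3. Among the lowest, Jchain, Retnla, Camp and Ngp each had over 50% of their library 2 UMIs in 1 cell, and Sult1a1, a sulfotransferase, had a ratio of 0.122 (0.0245 to 0.377) and was found in 41 cells of library 2 and 3 of library 3.

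Cells also differed in which lectin they carried. Cd209a and Mgl2 were both found in 225 of the 322 cells, Cd209a alone in 57, Mgl2 alone in 30 and neither in 10. Among cells without other markers, those with more Cd209a and those with more Mgl2 UMIs numbered 7 and 16 in library 1, 83 and 48 in library 2 and 18 and 28 in library 3, so library 2 alone had more of the first kind. This division uses genes of the rule and was made after the values were seen, so what follows is a description. In library 2, 23 of 2422 genes were higher in the cells with more Mgl2 (0.95%) and 46 lower (1.9%), and in library 3, 43 of 1170 were higher (3.68%) and 8 lower (0.684%). These counts include Mgl2 and Cd209a, whose directions the division fixed. Apart from them, C1qa, C1qc, Cxcl2 and Gm42418 were higher in both libraries and no other gene of the 1162 measured in both was lower in both. C1qa, a chain of complement C1q made by macrophages, stood at 2192, 269 and 477 CPM in the cells with more Mgl2 of libraries 1, 2 and 3, against 292, 34.7 and 160 CPM in those with more Cd209a, and C1qc at 1556, 184 and 455 against 292, 28.3 and 160 CPM. Cxcl2 was higher in libraries 2 and 3 but lower in library 1 (224 against 470 CPM). The C1q transcripts were concentrated: 10 of the 215 cells held 50.3% of them, and 13 of 23, 11 of 141 and 9 of 51 cells in libraries 1, 2 and 3 had at least 10.

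Retnla came from few cells. It had 1103, 473 and 0 CPM in libraries 1, 2 and 3, where the interval of the 0 in library 3 reached 4.34 CPM. The 1390 UMIs came from 23 of the 322 cells, 40.5% of them from 1 cell, and 1384 were in the 215 cells without other markers. Retnla encodes a secreted protein induced by interleukin 4 in macrophages and dendritic cells. Monocyte-marker, mature and macrophage-marker cells had 1, 5 and 6 UMIs.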

How the data were processed

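The authors deposited 1 matrix of UMI counts for the whole series, 27998 genes by 2149 cells and 13264401 UMIs, from Cd11b-sorted brain cells. Cell Ranger 2.0.1 and mm10 are named per the submitters' processing notes. The annotation and the filter that called cells are not given in the sources used here. Libraries 1, 2 and 3 held 1263, 599 and 287 cells with 6410990, 4022293 and 2831118 UMIs. Cells with at least 500 genes and at most 10% mitochondrial UMIs were kept, which removed 5. No doublets were removed.

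Counts were summed over cells and given as CPM with exact Poisson 95% intervals, and shares have Clopper-Pearson 95% intervals. Both cover counting error only. UMIs from the 3′ end were not divided by gene length. For ratios, a sum of 0 was set to 3 counts. Each cell was thinned once to 2000 UMIs for shares of cells, and shallower cells were left out. Other classes were cut by marker share of UMIs, in order after the Ccr7 mature cells (at least 3 UMIs of the Ccr7 set with the MHC class II minimum) and the dendritic-like rule: NK at least 0.3%, neutrophil 1%, macrophage 0.1%, microglia 0.3%, nonclassical monocyte 0.05% and monocyte 0.2%. The genes named by size were the 5 with the highest and the 5 with the lowest ratio among those meeting the criterion with the same direction in each library that had at least 20 cells of both classes. Listed genes could be named too, and 247 of 250 were matched (Trbc2, Ighm and Clec7a are not analysed here). The values of 1 listed gene are not reported here, though it is in the counts of its list. The members and the gene lists were chosen with earlier results of these data known. The calling of genes was tested on simulated Poisson counts of summed cells. These have no spread between cells, libraries or animals, so that test covers counting error only. Gene coordinates are from GENCODE vM21 on GRCm38 (mm10), and promoters from RefSeq. Alternatives are in the closing section. Python 3.11.15, numpy 2.4.6, scipy 1.17.1, scanpy 1.11.5 and matplotlib 3.10.9 were used.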

Additional observations from a re-analysis of the deposited data

How the results depend on the processing

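No paired analysis was possible because the libraries carry no group or replicate number. At most 5% mitochondrial UMIs, at least 1000 genes, a lectin minimum of 0.1%, an MHC class II minimum of 1% and removal of Scrublet calls left the shares within their intervals and the counts of genes within 1.5 times. Leaving out genes led by 1 cell kept the counts within that limit too. Leaving out cells with markers of another class, added after seeing the data, gave shares of 10.0% over all cells and 1.82%, 23.7% and 17.8% in libraries 1, 2 and 3. Leaving out 1 library at a time gave a share of dendritic-like cells of 7.62% to 31.3%. Thinning each cell to 2000 UMIs left 123 genes higher and 203 lower than in monocyte-marker cells, 72 and 63 beside Ccr7 mature cells, 247 and 268 beside macrophage-marker cells, and 35 and 21 for library 3 over library 2, with fewer UMIs behind each gene. With no minimum of UMIs, lower genes numbered 659, 339 and 2043 beside the 3 classes, and 251 were higher in library 3. Centred on the median ratio, the values were 269 lower (monocyte-marker), 152 higher (mature), 826 higher (macrophage-marker), and 91 higher and 131 lower (library 3). Leaving out 1 library gave 225 to 273 higher and 257 to 428 lower genes beside monocyte-marker cells, 97 to 232 and 118 to 207 beside mature cells, and 110 to 532 and 354 to 1118 beside macrophage-marker cells. Within single libraries, added after seeing the data, the counts were 173 higher (monocyte-marker, library 2), 155 higher and 225 lower (monocyte-marker, library 3), 162 higher (mature, library 2) and 169 higher and 390 lower (macrophage-marker, library 1). Without cycling cells, 45 genes were higher in library 3. The ratio of Lpl over mature cells turned to -0.46 (log2) after thinning, and those of Jchain to -1.77, -1.27 and 0.90 (mature, macrophage-marker, library 3 over 2) in cells without other markers, where its leading cell was left out. Flt3, Zbtb46 and Irf4 rest on 60 to 84 UMIs, and 46 cells limit library 1.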
